A study of Mus musculus with 2 samples.

Results

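The cells described here were T cell candidates that carried messages of innate lymphocyte receptors and no CD4 or CD8 beta message. They came from 2 single-cell RNA libraries, 1 labelled WT and 1 labelled Dapl1-KO, of tumour-infiltrating cells of C57BL/6 mice, an inbred strain. Before library preparation the cells had been sorted for CD45, found on blood-derived cells, and for CD90.2 (Thy1), found on T cells and on some innate lymphocytes. The series asks how T cells of tumours differ between wild-type and Dapl1-deficient mice. The labels used here state no age, tumour type, treatment, number of animals or design of the deletion. Members were chosen by their UMI counts of 11 genes. A cell had to hold at least 1 unique molecular identifier (UMI, a counted molecule) of Cd3d, Cd3e or Cd3g, none of Cd4, Cd8b1, Foxp3 or Il17a, and at least 1 of Klra1, Klra6, Klra7 or Klrb1c. The members, called gated cells below, were 1907 of 21021 kept cells. They numbered 883 of 9865 cells in the library labelled WT, or 8.95% (95% Clopper-Pearson interval 8.39 to 9.53), and 1024 of 11156 with the Dapl1-KO label, or 9.18% (8.65 to 9.73). The difference of 0.228 percentage points had a Newcombe interval of -0.552 to 1.004, which spans 0. With all deposited barcodes, shared ones included, the difference was 0.864 points (0.282 to 1.44), an interval above 0. Values of the 11 genes are given only as a description, since they chose the cells.

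Natural killer (NK) cells and some T cells share surface receptors of the lectin type. The Ly49 family, encoded by the Klra genes, reads MHC class I molecules on neighbouring cells, and most of its members inhibit the cell while others activate it through the adaptor DAP12 (Tyrobp). Klrb1c encodes NK1.1, the classical NK marker of this mouse strain, which also marks invariant NKT cells. T cells that lack both CD4 and CD8 and carry such receptors are usually counted as innate-like, and they include gamma-delta T cells, NKT cells and unconventional alpha-beta T cells. CD3 chains hold the T cell receptor at the surface of all T cells. NK cells can carry transcripts of T cell receptor constant regions without a rearranged receptor.

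With 1 library per label, differences between labels have no replicate check, and no p-value was computed. All intervals cover counting error only, and values are given for the library labelled WT first and the library labelled Dapl1-KO second unless stated. Levels are the summed UMIs of a group of cells per 1000000 UMIs of that group (CPM). A gene is called higher or lower at 1.5-fold or more, where it reached 20 CPM in a library. The gated cells held 6446033 and 8701016 UMIs, with medians of 5783 and 6850.5 UMIs per cell. Of their barcodes, 549 (62.2%) and 345 (33.7%) also occurred in the other library, where the copy had less than the required share of UMIs and was left out, and 0 gated cells kept the same barcode in both. Xist or Tsix without Y-linked messages was found in 83.9% and 0.0977% of the gated cells, and Y-linked messages without Xist or Tsix in 4.30% and 67.2%. The sex of the cells and the genotype label can therefore not be told apart. Dapl1 itself stood at 9.77 CPM (63 UMIs) and 9.88 CPM (86 UMIs). The deleted stretch of Dapl1 is not named in the labels, so this level does not check them.

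The label of innate-like T cells held for only some of the gated cells. Among members with 1 or 2 CD3 UMIs, genes of NK cells stood close to their level in cells that met every other criterion and had no CD3 UMI at all. Among members with 6 or more CD3 UMIs, NK genes were lower, and Trac and several other T cell genes were higher. The first group held 217 cells (24.6% of members) and 316 cells (30.9%), the second 485 (54.9%) and 606 (59.2%). Sequencing depth did not separate them, with median UMIs of 5903 and 6835.5 in the first and 6260 and 7005.5 in the second. Of the 6 genes proposed as markers of these cells, Klra1 stood at 141 and 144 CPM, Klra6 at 40.3 and 59.2 CPM and Klra7 at 295 and 347 CPM in all members. Xcl1 stood at 926 and 1453 CPM and Cd7 at 210.1 and 225 CPM. Neither was lower by 1.5-fold in cells without CD3, where Xcl1 stood at 1591 and 1763 CPM and Cd7 at 203 and 200.5 CPM. Tcrg-C4, a gamma-chain constant region, stood at 33.0 and 33.7 CPM and was found in 16.4% and 18.2% of members. The split by CD3 UMIs was chosen after the levels had been seen and is a description.

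Ncr1, which encodes the NK receptor NKp46, stood at 189 and 208 CPM in the 390 and 502 cells with no CD3 UMI. With exactly 1 CD3 UMI it stood at 176 and 185 CPM, and with 6 or more at 38.6 and 35.6 CPM. Members with a single CD3 UMI thus lay near the cells without CD3 in both libraries. Tyrobp followed the same order, at 1774 and 2372 CPM without CD3, 1637 and 2139 CPM with 1 UMI, and 349.9 and 375 CPM with 6 or more. Gzma, a granule protease of NK and cytotoxic T cells, stood at 4472 and 8318 CPM without CD3, 3368 and 7058 CPM with 1 UMI, and 649 and 579 CPM with 6 or more. Irf8, a transcription factor expressed in NK cells and myeloid cells, stood at 429 and 803 CPM, 419 and 724 CPM, and 63.7 and 103 CPM in the same groups. All 10 genes of the NK list were at least 1.5-fold lower with 6 or more CD3 UMIs than with 1 or 2 in both libraries, with a median log2 ratio of -1.83 and -2.34. Over all 4404 genes measured in that comparison, 5.4% were lower in both libraries and 2.54% higher.

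The opposite order was seen for several T cell genes that the rule did not use. Trac, the constant region of the T cell receptor alpha chain, stood at 21.0 and 29.1 CPM without CD3, 29.8 and 33.1 CPM with 1 CD3 UMI, and 229 and 276 CPM with 6 or more. Ikzf2, which encodes the transcription factor Helios, stood at 50.2 and 70.1 CPM, 83.5 and 69.7 CPM, and 267 and 335 CPM. Ly6c2, a surface protein of memory T cells and monocytes, stood at 65.4 and 46.1 CPM, 58.0 and 48.3 CPM, and 535 and 548 CPM. Bcl11b, a factor required for T cell commitment, stood at 12 and 8.5 CPM in members with 1 or 2 CD3 UMIs and at 59.6 and 54.8 CPM in those with 6 or more. Each was higher with 6 or more CD3 UMIs than with 1 or 2 in both libraries, while the step from 0 to 1 CD3 UMI went different ways in the libraries for Ikzf2 and Ly6c2. Not all T cell genes followed. Of 8 measured receptor constant and CD3 chain genes outside the rule, 6 were at least 1.5-fold higher with 6 or more CD3 UMIs than with 1 or 2 in both libraries and 0 lower. Of 12 T cell receptor signalling genes 4 were higher and 0 lower, with median log2 ratios of 0.52 and 0.32. Over all genes measured in that comparison, 2.54% were higher and 5.4% lower. Trbc1, a beta-chain constant region, stood at 541 and 529 CPM without CD3 and at 425 and 426 CPM with 6 or more CD3 UMIs. Cd247, the CD3 zeta chain, stood at 37.2 and 61.0 CPM and at 46.0 and 52.9 CPM in the same groups.

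**Figure D1:**
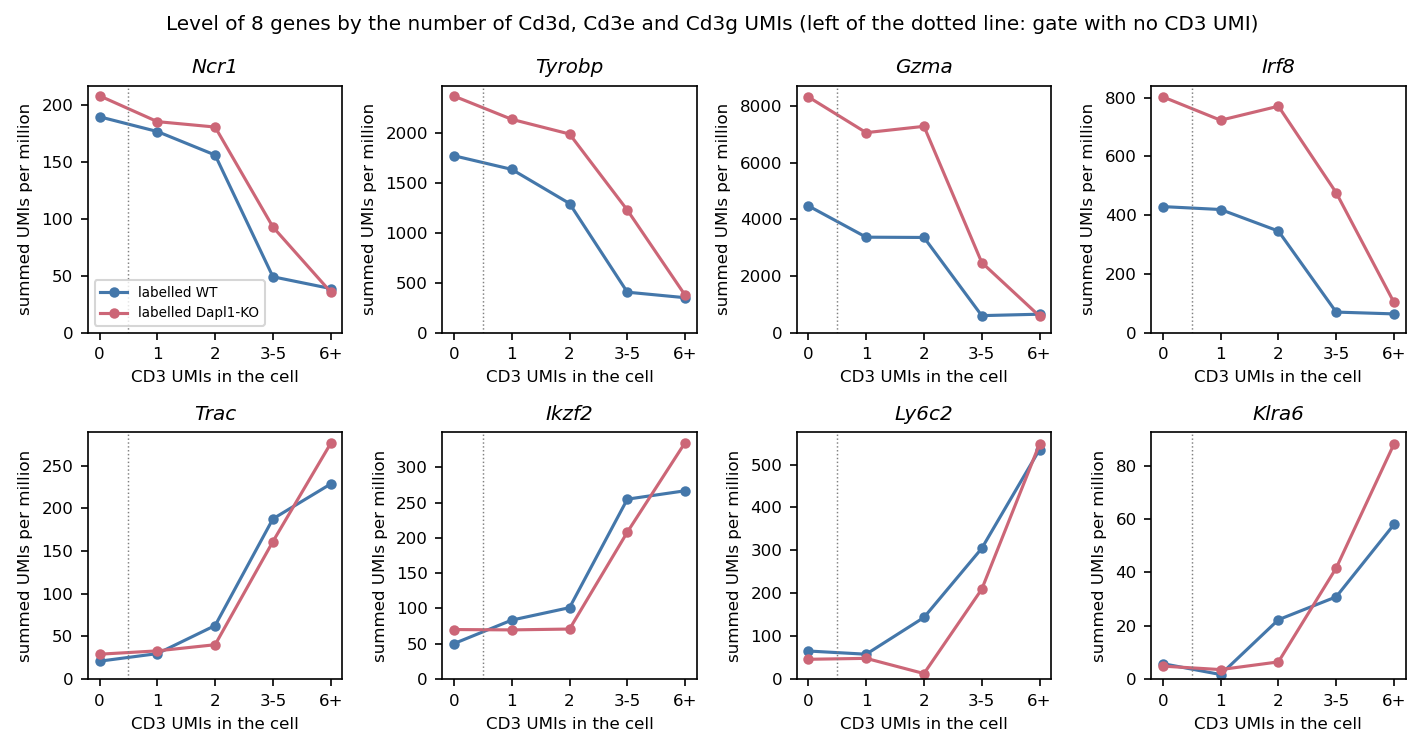
Summed UMIs in CPM (y axis) of 8 genes against the number of Cd3d, Cd3e and Cd3g UMIs in a cell (x axis), 1 point per group of cells and library; the group at 0 CD3 UMIs lies outside the gate, and points have no error bars because each is 1 pooled value. Ncr1 goes from 189 and 208 CPM at 0 CD3 UMIs to 38.6 and 35.6 CPM at 6 or more, while Trac goes from 21.0 and 29.1 to 229 and 276 CPM.

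Part of the members lay at the edge of the rule, and their numbers were uneven along the CD3 counts. Members with 2 CD3 UMIs numbered 65 and 74, those with 3 to 5 181 and 102, and those with 6 or more 485 and 606. Exactly 1 CD3 UMI was held by 152 members (17.2%) and 242 members (23.6%), and exactly 1 receptor UMI by 210 (23.8%) and 177 (17.3%). Cd3d was also found in cells rich in macrophage messages, and whether free RNA or doublets brought it there was not tested. After each cell was thinned to 3000 UMIs, Cd3d was found in 55.2% and 60.9% of cells with 10 or more UMIs of the macrophage genes C1qa, C1qb, C1qc and Lyz2, against 70.8% and 69.4% of members. Those reference cells were deeper before thinning, with medians of 22804 and 16424.5 UMIs, and doublets with T cells among them were not removed. Receptor messages were far less frequent in the reference cells used for them. Thinned, Klra7 was found in 40.4% and 47.7% of members, against 1.94% and 1.45% of cells with both Cd4 and Foxp3, whose unthinned median depths were 16644 and 14108.5 UMIs. Unthinned, those shares were 51.9% and 59.5% of members, against 4.69% and 4.80%.

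Variable segments of the alpha chain, and the 1 counted for the gamma chain, were found in members and hardly at all in the cells without CD3. Those of the delta chain were found in both. Variable segments of the alpha chain (Trav) gave 219 and 261 UMIs from 52 and 50 segments in members, and 5 and 2 UMIs in the gate without CD3. In members the most frequent segment made up 8.68% of Trav UMIs (Trav13-4-dv7) and 10.3% (Trav16n), so that no single segment held most of them. Trav11, the segment used by invariant NKT cells, had 0.310 and 0 CPM, and Zbtb16, which encodes the NKT factor PLZF, 3.88 and 3.56 CPM. These defining NKT markers were at or near 0. With so few Trav UMIs over all members, Trav11 could be missed in cells that carry it. Trgv2, a gamma-chain variable segment, gave 229 and 263 UMIs in members and 0 and 2 without CD3. Delta-chain variable segments (Trdv) gave 131 and 215 UMIs in members (20.3 and 24.7 CPM) and 90 and 182 UMIs (32.5 and 49.1 CPM) without CD3. They so did not set members apart from the cells without CD3. Sox13, a factor of the interleukin-17-producing gamma-delta lineage, had 0 UMIs in members of both libraries.

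Trac was found in 51.3% and 53.3% of members and in 13.3% and 17.7% of cells without CD3. Trdc, the delta-chain constant region, was found in 22.7% and 28.3% of members, and in 17.7% and 21.3% of cells without CD3. Trbc1 was found in 88.2% and 90.4% of the cells without CD3, more than the 66.3% and 72.4% of members, and so did not separate the gates. The share of members with Trdc was 5.67 points higher with the Dapl1-KO label (1.74 to 9.54). It was 2.42 points higher (-1.39 to 6.19) when cells were thinned to 3000 UMIs before the rule was applied, an interval that spans 0. Cells with an alpha or beta constant region and no Trdc were 75.5% and 70.9% of members, a difference of -4.64 points (-8.58 to -0.646), which thinned to -0.733 (-4.82 to 3.39). Trdc stood at 91.8 and 130.1 CPM over all members and at 116 and 179 CPM in those with 6 or more CD3 UMIs, against 37.8 and 33.6 CPM in those with 1 or 2. The gamma-chain constant regions were likewise held by the cells rich in CD3. Tcrg-C2 stood at 50.6 and 51.4 CPM there and at 6.00 and 0 CPM with 1 or 2 CD3 UMIs, and Tcrg-C4 at 41.6 and 45.3 CPM against 16.8 and 11.6 CPM. Reads of the Tcrg and Trbc constant regions may be shared between near-identical copies, so their split is uncertain.

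The Ly49 genes lie side by side on the minus strand of chromosome 6 (GRCm38), among them Klra6 at chr6:130013033-130026954, Klra7 at chr6:130218605-130233322 and Klra1 at chr6:130363917-130386874, with Klrb1c nearby at chr6:128778485-128789215. Their levels divided along the same line. Klra6 (Ly49F, an inhibitory receptor) stood at 58.0 and 88.1 CPM in members with 6 or more CD3 UMIs and at 7.80 and 4.25 CPM in those with 1 or 2. Klra1 (Ly49A, inhibitory) stood at 184 and 197 CPM against 63.6 and 43.3 CPM. Klra7 (Ly49G, inhibitory) was closer in the groups, at 278 and 315 CPM against 373 and 406 CPM. The activating receptors ran the other way. Klra4 (Ly49D) stood at 32.9 and 22.7 CPM with 6 or more CD3 UMIs and at 239.8 and 206 CPM with 1 or 2, and Klra8 (Ly49H) at 24.2 and 22.7 CPM against 248 and 274 CPM. Inhibitory Klra3 (Ly49C) and Klra9 (Ly49I) were also lower in the cells rich in CD3, at 21.2 and 35.2 CPM against 53.4 and 90.4 CPM, and at 50.3 and 59.2 CPM against 106 and 109 CPM. Of the 5 measured Ly49 genes that the rule did not use, 4 were lower in both libraries, and Klra5 (Ly49E) was higher, at 24.2 and 32.8 CPM against 6.60 and 17.0 CPM. Over all genes measured in that comparison, 5.4% were lower and 2.54% higher. Klra1, Klra6 and Klra7 helped choose the cells, so their values describe the choice. The last 400 bases of the Ly49 transcripts share few 91-base stretches with each other (at most 0.361%, in Klra9), so reads of full-length sequence could mostly be assigned.

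Windows from the promoters of 4 of these genes are shown because Klra6, the Ly49 gene with the largest ratio toward the CD3-rich cells, and the 2 activating genes with the opposite ratio differ within an otherwise near-identical stretch. The sequences are from RefSeq on GRCm38.p6, minus strand of chromosome 6, 5′ to 3′, and capitals mark the letters CTTTGAT, the core of the TCF and LEF factor motif. The windows lie at chr6:130027034-130027073 for Klra6, chr6:130233372-130233411 for Klra7, chr6:130067311-130067350 for Klra4 and chr6:130129939-130129978 for Klra8.
Klra6: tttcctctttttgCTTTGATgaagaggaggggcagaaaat
Klra7: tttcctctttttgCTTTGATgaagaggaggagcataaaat
Klra4: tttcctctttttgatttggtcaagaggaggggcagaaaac
Klra8: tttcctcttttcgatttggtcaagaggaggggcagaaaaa
CTTTGAT, on either strand, was found in the 250 bases before the start of 1053 of 32851 promoters (3.21%). It was found in the Klra6 promoter and in 1 of the 2 promoters listed for Klra7, and not in those of Klra1, Klra3, Klra4, Klra5, Klra8 or Klra9. The letters were chosen after the windows had been seen. A match describes sequence and not binding. Klra7, which holds the motif, differed by less than 1.5-fold between the groups by CD3 UMIs. Klra1 and Klra5, which lack it, were higher in the CD3-rich cells. Klra1, Klra6 and Klra7 helped choose the cells, so their levels describe the choice. Any part of the motif, or of the factors that read it, in these levels was not tested. Tcf7 and Lef1, which encode factors that read this motif, stood at 199 and 161 CPM and at 107 and 88.1 CPM in members with 6 or more CD3 UMIs. With 1 or 2 CD3 UMIs they stood at 136 and 105 CPM and at 48.6 and 41.3 CPM.

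Which receptor a member carried also went with its other genes. Members with Klrb1c and none of the 3 Ly49 genes numbered 262 (29.7%) and 252 (24.6%), those with a Ly49 gene and no Klrb1c 291 (33.0%) and 358 (35.0%), and those with both 330 (37.4%) and 414 (40.4%). Ncr1 stood at 12 and 22.3 CPM in cells with Ly49 messages alone, against 99 and 130.1 CPM with Klrb1c alone and 102 and 108 CPM with both. Gzma stood at 229.9 and 865 CPM with Ly49 alone and at 1714 and 4309 CPM with Klrb1c alone. Trac ran the other way, at 245 and 315 CPM with Ly49 alone and 114 and 105 CPM with Klrb1c alone, and Ikzf2 stood at 292 and 362 CPM against 160 and 132 CPM. Cd7, a surface protein of T and NK cells, did not show this order, at 195 and 221 CPM against 217 and 248 CPM. Median depth in the groups ran from 5291.5 to 6578 UMIs in the library labelled WT and from 6579 to 7284.5 in the library labelled Dapl1-KO.

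**Figure D2:**
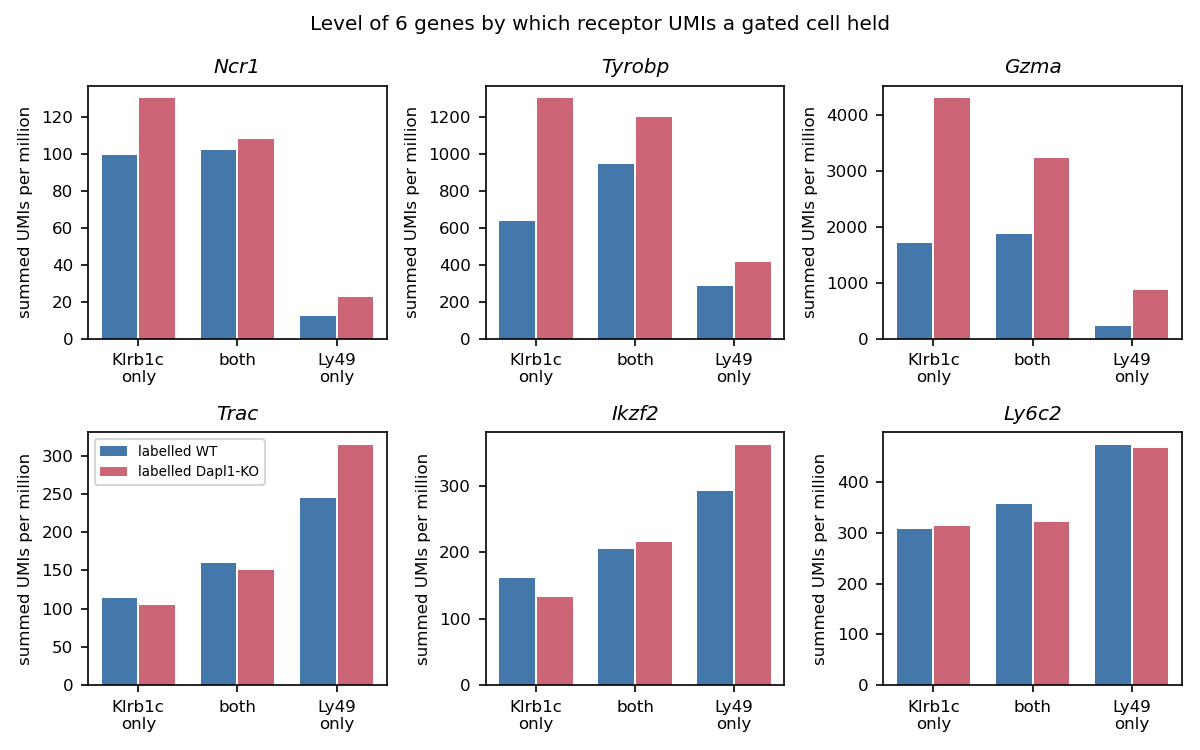
Bars show summed UMIs in CPM (y axis, from 0) of 6 genes in gated cells with Klrb1c alone, with both kinds of receptor, or with Klra1, Klra6 or Klra7 alone (x axis), 1 bar per library; each bar is 1 pooled value with no error bar. Ncr1 is lowest with Ly49 messages alone (12 and 22.3 CPM), where Trac is highest (245 and 315 CPM).

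Members often held several receptors. Of cells with Klra6, 67.8% and 72.1% also held Klra7, and 50.3% and 39.6% also held Klrb1c. Of cells with Klra7, 22.1% and 28.4% held Klra6. These shares depend on depth and are not corrected for it.

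Members were also compared with 3 gates that each differed from the rule by 1 criterion. Trac stood at 173 and 194 CPM in members, at 273 and 274 CPM in cells without the receptors and at 370 and 467 CPM in cells with Cd8b1. Ikzf2 was highest in members, at 219 and 245 CPM, against 50.2 and 70.1 CPM without CD3, 148.5 and 175 CPM without receptors and 141 and 187 CPM with Cd8b1. Klk8, a serine protease, stood at 77.1 and 64.1 CPM in members and at 16.3 and 11.1 CPM in cells without CD3. Of 4397 genes measured, 1.93% were higher in members than in cells without CD3 in both libraries, and 2.39% lower. The cells without any of the 4 receptors (1551 and 1169) differed more, with 4.86% of 4736 genes higher in members and 10.6% lower. The cells that met the rule but for carrying Cd8b1 (440 and 658) differed in 5.71% of 4730 genes that were higher in members and 13.4% that were lower. Cells with Cd8b1 were deeper, with medians of 13406 and 15874 UMIs. Cd8a stood at 20.9 and 31.4 CPM in members and at 217 and 304 CPM in that gate. In members with 6 or more CD3 UMIs it stood at 29.1 and 44.0 CPM and was found in 14.8% and 20.5% of cells. With 1 CD3 UMI it was found in 2.63% and 6.20% of them. Whether Cd8b1 was missed in some members was not tested.

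**Figure D3:**
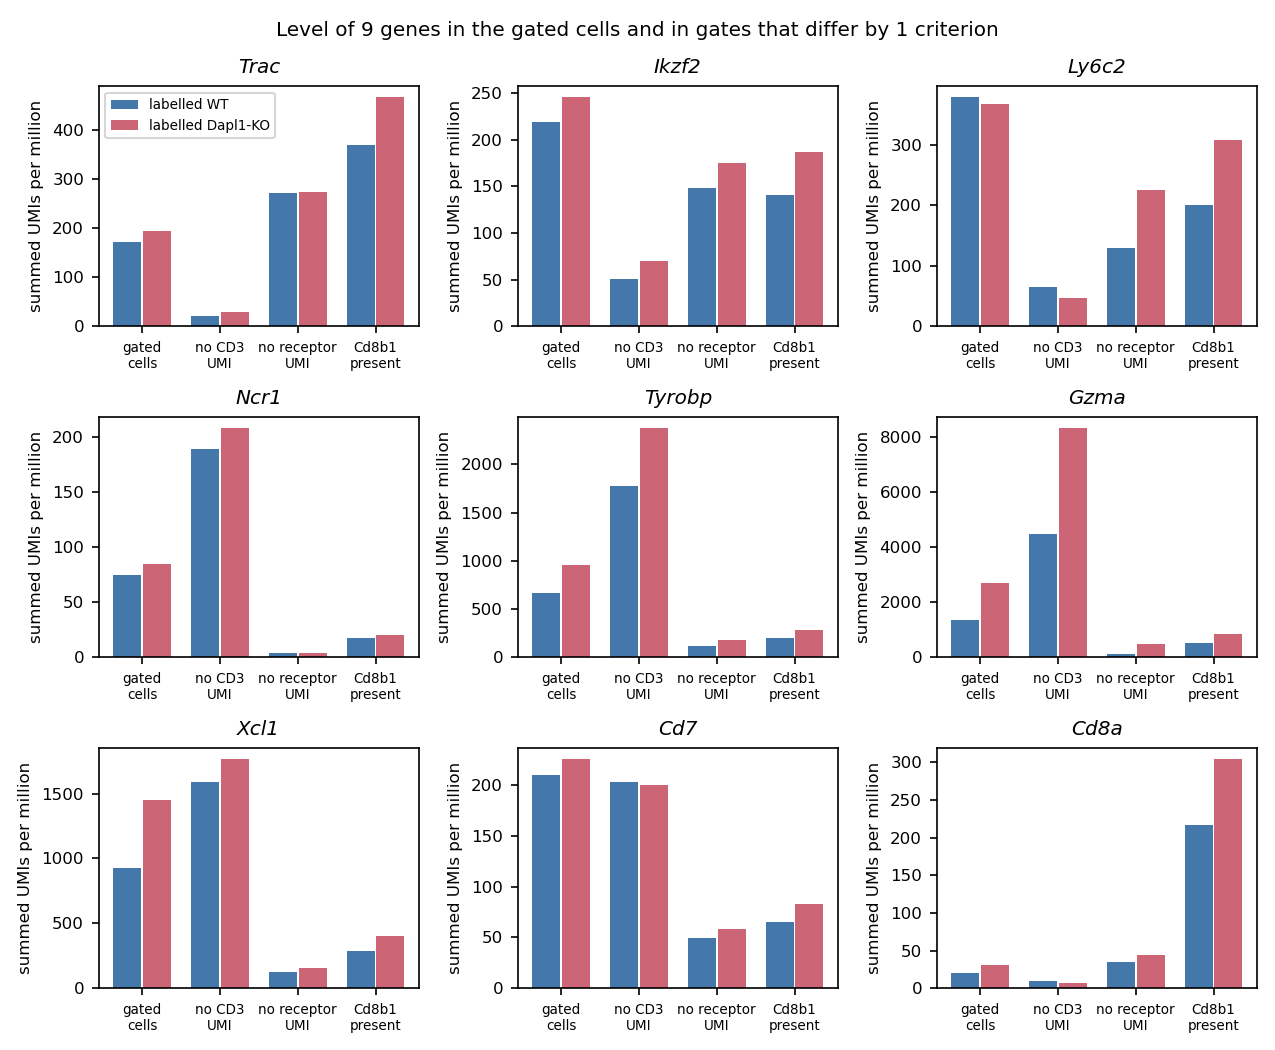
Bars show summed UMIs in CPM (y axis, from 0) of 9 genes in the gated cells and in 3 gates that differ by 1 criterion (x axis), 1 bar per library, with no error bar because each is 1 pooled value. Ncr1 and Tyrobp are highest without CD3, Xcl1 and Cd7 are low without the receptors, and Cd8a is highest where Cd8b1 was required.

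Members with 6 or more CD3 UMIs, in which NK genes were lower, were next compared with gates of the same CD3 minimum. Against receptor-negative cells (809 and 775), 2.44% of 4425 genes were higher in members in both libraries and 4.05% lower. Xcl1, a chemokine that attracts cross-presenting dendritic cells, stood at 889 and 1354 CPM in these members and at 118 and 193 CPM in the receptor-negative cells. Cd7 stood at 221 and 235 CPM against 62.9 and 73.3 CPM. Both were proposed as markers of these cells with earlier results of these data known, so these values do not check them. In cells without CD3, Xcl1 stood at 1591 and 1763 CPM and Cd7 at 203 and 200.5 CPM. Cd160, an immunoglobulin-like receptor of innate lymphocytes, stood at 123 and 115 CPM against 26.3 and 25.8 CPM. Of 11 measured NKG2, NKR-P1 and related receptors, 9 were higher in members and 0 lower, among them Klrk1 (the activating receptor NKG2D) at 352 and 282 CPM against 68.6 and 98.8 CPM. Of 11 measured costimulatory and checkpoint genes 6 were lower and 1 higher. The lower genes included Tnfrsf4 (the costimulatory receptor OX40) at 22.3 and 22.0 CPM against 288 and 332 CPM, and Ctla4, a checkpoint receptor, at 37.8 and 46.8 CPM against 255 and 303 CPM. Both genes are also in the list of regulatory T cell genes, of which 4 of 5 measured were lower in members in both libraries, with median log2 ratios of -1.23 and -1.53. Of the 7 measured macrophage genes, 5 were lower in members in both libraries. The part of these cell types in these differences was not tested.

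Against cells with Cd8b1 and 6 or more CD3 UMIs (399 and 613), proliferation genes and several checkpoint and granule genes were lower in members. All 22 measured proliferation genes were lower in members in both libraries, with median log2 ratios of -2.00 and -1.69, where 15.5% of all 4676 genes were lower and 5.77% higher. Of 13 inhibitory and costimulatory receptors, 8 were lower and 1 higher. Pdcd1 (PD-1) stood at 27.5 and 31.3 CPM against 178 and 208 CPM, Lag3 at 9.52 and 11.9 CPM against 141 and 157 CPM, and Havcr2 (TIM-3) at 6.26 and 2.98 CPM against 68.9 and 65.9 CPM. Of 20 cytotoxic granule genes 9 were lower and 0 higher, among them Gzmb, a granule protease, at 383 and 267 CPM against 1141 and 1662 CPM. Bcl2, which protects cells from death, was higher, at 401 and 251 CPM against 171 and 102 CPM, as was Cd69, a marker of recent activation and of tissue residency, at 427 and 399.9 CPM against 171 and 157 CPM. These gates differed in depth, with medians of 14464 and 16644 UMIs in the cells with Cd8b1.

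Between the libraries, 168 of 4690 genes (3.58%) were at least 1.5-fold higher in gated cells of the library labelled Dapl1-KO and 192 (4.09%) lower, with a median log2 ratio of 0.0466 over all of them. Lists with several such genes included proliferation, heat shock and cytotoxic granule genes. Of 17 measured proliferation genes 10 were higher and 0 lower, with a median log2 ratio of 0.70. Of 12 heat-shock genes 7 were lower and 0 higher, with a median of -0.88. All 4 measured melanocytic genes were higher, and the cytotoxic list went both ways.

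**Figure D4:**
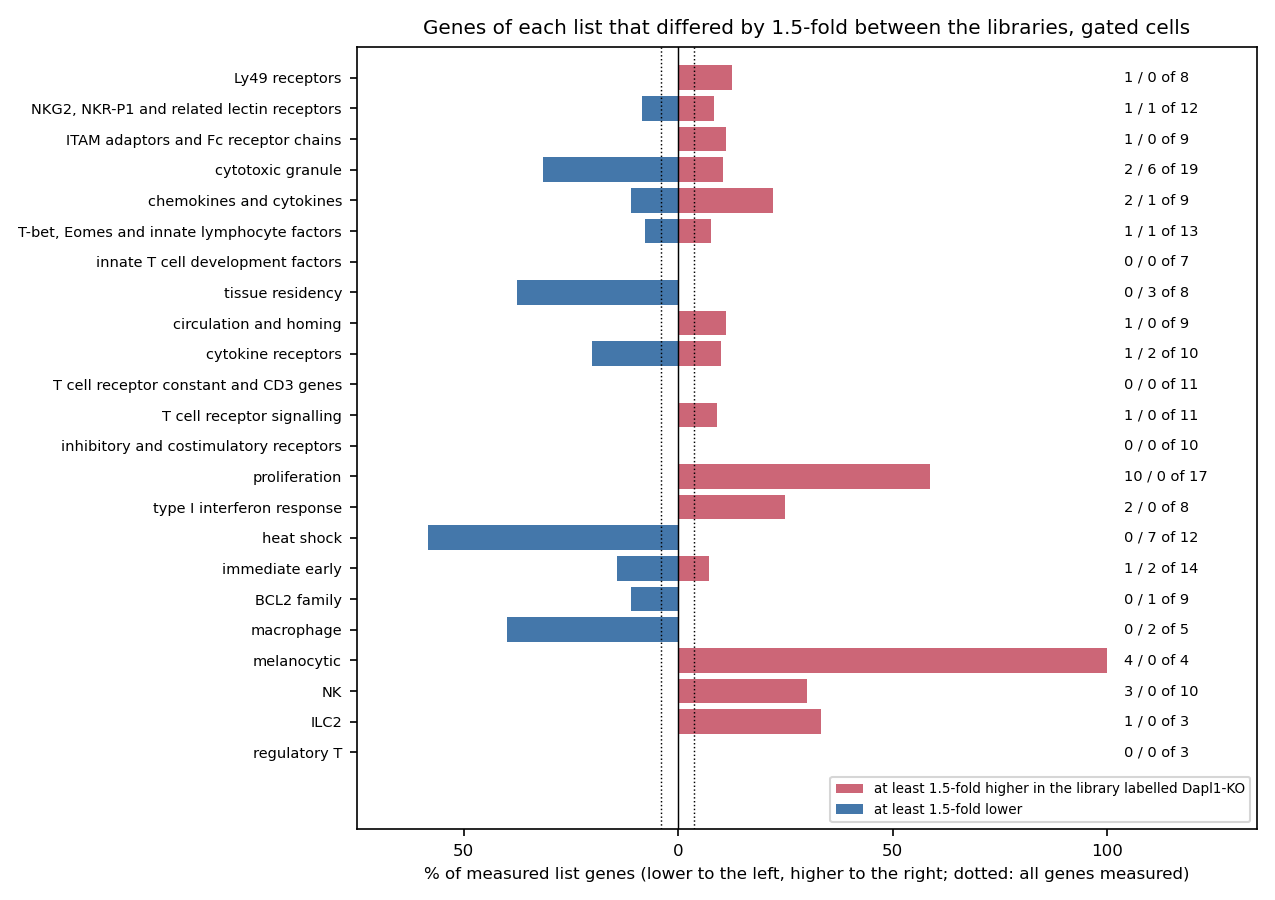
Share of the measured genes of each list (x axis, percent) that were at least 1.5-fold higher (right) or lower (left) in the library labelled Dapl1-KO, gated cells, with the counts (higher, lower, measured) at the right and dotted lines at the 3.58% and 4.09% of all genes. Proliferation (10 of 17 higher) and heat shock (7 of 12 lower) have the largest counts, and the 4 melanocytic genes rest on few cells.

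Hspa1a, which encodes an inducible HSP70 chaperone, stood at 2240.45 and 329 CPM, a log2 ratio of -2.77 (-2.83 to -2.71). It was found in 70.0% and 27.1% of members. Dnajb1, its HSP40 partner, stood at 986 and 212 CPM (log2 ratio -2.22), and Hsph1 and Hsp90aa1 had log2 ratios of -1.29 and -1.14. The difference was not particular to the gated cells, since Hspa1a stood at 1946 and 372 CPM in cells without CD3, at 2131 and 409 CPM in those without receptors and at 942 and 179 CPM in those with Cd8b1. Jun, an immediate early gene that rises on cell stress and on dissociation, stood at 923 and 441 CPM in members, and Btg2, an antiproliferative early gene, at 457 and 248 CPM. Nr4a3, an early gene induced by T cell receptor signals, ran the other way, at 40.2 and 88.8 CPM (log2 ratio 1.14, 0.94 to 1.35). Pmepa1, a negative regulator of TGF-beta signalling, stood at 51.5 and 109.5 CPM (log2 ratio 1.09) and was found in 25% and 43.9% of members, with at most 1.51% of its UMIs in 1 cell.

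Pclaf, a DNA replication factor, stood at 26.8 and 85.7 CPM (log2 ratio 1.68, 1.43 to 1.92), and was found in 4.08% and 8.69% of members. Mcm5, a subunit of the replicative helicase, stood at 12.7 and 30.9 CPM, and Mki67, the cycling marker Ki-67, at 23.4 and 42.4 CPM. A few cells held much of these messages, since the single richest cell had 22.5% and 15.5% of the Pclaf UMIs and 22.5% and 18.2% of the Mki67 UMIs. Among members with 6 or more CD3 UMIs, 13 of 18 proliferation genes were higher and 0 lower, where 6.52% of all 4632 genes were higher and 4.23% lower. Those percentages stand for 302 and 196 genes, and the count of higher genes was thus over 1.5 times that in all members. Of the 4364 UMIs of Dct, a pigment cell gene, in members of the library labelled Dapl1-KO, 4350 lay in this group. It stood there at 0.816 and 810 CPM, and the part of such cells in the count was not tested. The cells without receptors and those with Cd8b1 also gave more Pclaf in the library labelled Dapl1-KO, at 54.1 and 94.6 CPM and at 139 and 279.9 CPM.

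Il7r, Id3 and Bcl2 were among the genes with lower levels in the library labelled Dapl1-KO. Il7r, the interleukin-7 receptor alpha chain, stood at 354 and 165 CPM (log2 ratio -1.11, -1.20 to -1.01) and was found in 67.0% and 42.9% of members. In members with 6 or more CD3 UMIs it stood at 414 and 208 CPM, a log2 ratio of -0.99 (-1.11 to -0.88). Id3, an inhibitor of E-protein transcription factors, stood at 195 and 82.5 CPM (log2 ratio -1.24), and at 209.5 and 121 CPM in the cells rich in CD3. Bcl2 stood at 375 and 233 CPM (log2 ratio -0.68). Il7r was also lower in the gates without receptors (446 and 216 CPM) and with Cd8b1 (182 and 84.6 CPM). Il18rap, a chain of the interleukin-18 receptor, stood at 72.1 and 47.7 CPM, and Il12rb2, a chain of the interleukin-12 receptor, at 24.8 and 37.7 CPM. Of the 8 measured residency genes 3 were lower and 0 higher, where 4.09% of all genes were lower and 3.58% higher. The 3 were Ahr (the aryl hydrocarbon receptor, 89.5 and 47.5 CPM), Cxcr6 (a chemokine receptor, 20.8 and 13.2 CPM) and Itga1 (the integrin CD49a, 22.2 and 14.5 CPM). With 6 or more CD3 UMIs 2 of 8 measured were lower and 0 higher, where 4.23% of all genes were lower and 6.52% higher.

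Among effector genes, Xcl1 stood at 926 and 1453 CPM, a log2 ratio of 0.65 (0.61 to 0.70), and was found in 65.8% and 82.9% of members. The difference was of like size in members with 6 or more CD3 UMIs (log2 ratio 0.61, 0.55 to 0.67) and with 1 or 2 (0.62). Gzma stood at 1343 and 2684 CPM over all members, a log2 ratio of 1.0 (0.96 to 1.03). With 1 or 2 CD3 UMIs it stood at 3365 and 7112 CPM, and with 3 to 5 at 598 and 2473 CPM. With 6 or more the direction of the pooled level turned, at 649 and 579 CPM, a log2 ratio of -0.16 (-0.24 to -0.087). The share of cells did not turn, since Gzma was found in 17.9% and 27.7% of the members with 6 or more. Irf8 stood at 151 and 323 CPM (log2 ratio 1.10), with a ratio of 0.69 in the cells rich in CD3. Klre1, a lectin-like receptor of NK cells, stood at 211 and 385 CPM (log2 ratio 0.87) and kept a ratio of 0.62 there. Of the 10 NK genes 3 were higher and 0 lower in all members, where 3.58% of all genes were higher and 4.09% lower. In the cells rich in CD3, 2 were higher and 1 lower, where 6.52% of all genes were higher and 4.23% lower.

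**Figure D5:**
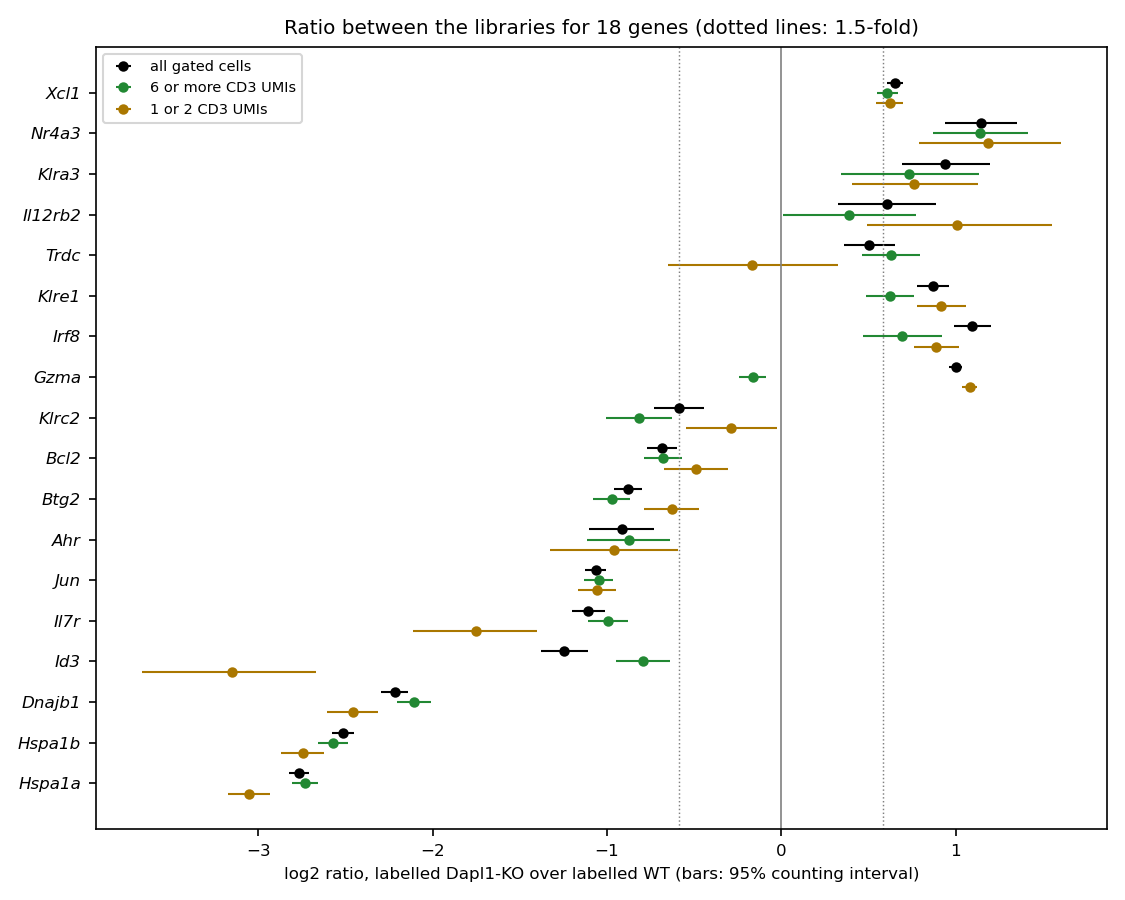
Points show the log2 ratio of Dapl1-KO to WT labelled libraries (x axis) for 18 genes (y axis) in all gated cells, in those with 6 or more CD3 UMIs and in those with 1 or 2, and bars are 95% counting intervals. Il7r and Xcl1 keep their direction in each group, while Gzma is 1.0 in all gated cells and -0.16 with 6 or more CD3 UMIs. The ratios are of pooled levels, and with 6 or more CD3 UMIs Gzma was found in 17.9% and 27.7% of cells.

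Of 19 measured cytotoxic genes 2 were higher and 6 lower, where 3.58% of all genes were higher and 4.09% lower, and the list's median log2 ratio was -0.039. The lower genes included Gzmd, Gzme, Gzmf and Gzmg, which rested on few cells. In the library labelled WT the richest cell held 43.5%, 46.3%, 67.4% and 48.3% of their UMIs. Prf1, which encodes the pore-forming protein perforin, stood at 118 and 138 CPM and Gzmb at 410.2 and 422 CPM. The richest cell held 21.8% of the Gzmb UMIs in the library labelled WT. In members with 6 or more CD3 UMIs, 7 of 19 genes were lower and 0 higher, where 4.23% of all genes were lower and 6.52% higher. Prf1 stood there at 84.9 and 43.6 CPM (log2 ratio -0.96, -1.21 to -0.71). These are pooled levels, and shares of cells could go the other way. Among the same members Prf1 was found in 16.3% and 19.6% of cells. Gzmb was found in 33.8% and 50.5% of them, at 383 and 267 CPM. Gzmc, another granzyme, stood at 720.4 and 435 CPM (log2 ratio -0.73), with 23.8% and 29.6% of its UMIs in 1 cell, and the ratio was 0.024 when cells were thinned to 3000 UMIs before the rule. Among Ly49 genes, Klra3 stood at 28.4 and 54.5 CPM (log2 ratio 0.94, 0.69 to 1.19). Of the 5 measured genes outside the rule, 1 was higher and 0 lower. Their median log2 ratio was 0.36. It was 0.66 when cells were thinned before the rule, 0.23 with 6 or more CD3 UMIs and 0.12 in cells chosen by Klra1, Klra6 or Klra7 only. Klrc2 (NKG2C, an activating receptor) was lower, at 133 and 88.8 CPM (log2 ratio -0.59).

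Of the 8 measured receptor constant and CD3 chain genes outside the rule 0 were higher and 0 lower between the labels, and with 6 or more CD3 UMIs 1 of 8 was higher (Trdc, 116 and 179 CPM). Of 11 signalling genes 1 was higher in all members, Zap70 (the kinase recruited by CD3 chains), at 36 and 54.6 CPM. None of the 10 measured inhibitory and costimulatory receptors and none of the 7 innate T cell development factors reached 1.5-fold in these gated cells. Of the 8 interferon response genes 2 were higher and 0 lower, with a median log2 ratio of 0.38. Among them was Ifi27l2a, an interferon-induced gene, at 88.7 and 133 CPM. Over all genes measured in all members, 3.58% were higher and 4.09% lower.

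Several of the largest ratios rested on single cells. Mgp, a matrix protein of stromal cells, stood at 76.2 and 0.460 CPM, and 97.6% of its UMIs in the library labelled WT were in 1 cell. Dct, a melanin synthesis enzyme, stood at 28.5 and 502 CPM, and 3 cells held 98.8% of its UMIs in the library labelled Dapl1-KO. Tyrp1 (2.64 and 133 CPM) and Pmel (9.15 and 54.7 CPM), also pigment cell genes, had the same direction. Saa3, an acute-phase protein of myeloid and stromal cells, stood at 2.02 and 72.9 CPM, with 49.2% of its UMIs in 1 cell of the library labelled Dapl1-KO. The melanocytic list summed to 47.2 and 740 CPM in members and the macrophage list to 290.3 and 233 CPM. All 4 measured melanocytic genes were higher and 2 of 5 macrophage genes lower, where 3.58% of all genes were higher and 4.09% lower. The B cell list summed to 2.95 and 2.30 CPM, with Cd79b at 15 and 18 UMIs, Cd79a at 4 and 2, and Ms4a1 at 0. Cells with 5 or more UMIs of the macrophage and melanocytic lists numbered 16 and 27. Without them 145 genes were higher and 178 lower in the library labelled Dapl1-KO.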

How the data were processed

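For each of 2 libraries the authors deposited raw UMI counts, a matrix of 32285 genes by barcodes with no scaling. The labels state 10x Genomics 3′ chemistry. Cell Ranger 5.0.0 and the names mm10 and GRCm38 come from the submitters' processing notes. The libraries held 16673 and 19662 barcodes with 154408101 and 206322042 UMIs, and 13132 barcodes occurred in both. Of such a barcode, a copy was kept only with at least 2 times the UMIs of the other. Cells needed 500 genes and at most 10% mitochondrial UMIs.

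Counts were summed over the cells of a gate and scaled to CPM. Log2 ratios have exact conditional binomial intervals at 95%, with a floor of 3 counts per library for a count of 0, and shares have Clopper-Pearson or Newcombe intervals. The ratio was tested on simulated data for the comparison of the libraries in gated cells (4449 genes, 200 changed). Scrublet's automatic threshold (scanpy 1.11.5) called 0 doublets, and doublets were kept except in an alternative. Python 3.11.15, numpy 2.4.6 and scipy 1.17.1 were used.

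The members and 24 gene lists (293 of 297 genes found) were chosen with earlier results of these data known. Named genes were the rule genes, the cell type markers, the 12 highest and 12 lowest ratios at 50 CPM or more, up to 4 genes per list with the largest ratio, the 8 most above and below each of 3 neighbouring gates, and Dapl1. Antigen receptor segments, sex-linked, mitochondrial and ribosomal genes were left out of rankings. Other genes in the text were list members picked after their values were seen. Groups followed the genotype labels, and the groups by CD3 UMI number were formed after the data were seen.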

Additional observations from a re-analysis of the deposited data

Results flagged for a closer look

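In 3 granzyme genes the libraries differed in opposite directions in the gated cells and in the cells without CD3 UMIs, and the difference between the gates was not tested. The log2 ratio of Gzmd was -2.95 in gated cells and 3.77 in cells without CD3, that of Gzmf -2.60 and 2.16, and that of Gzmg -5.05 and 4.42. Few cells held these messages. In gated cells of the library labelled WT the richest cell held 43.5% of the Gzmd UMIs, 67.4% of Gzmf and 48.3% of Gzmg. In cells without CD3 of the library labelled Dapl1-KO the richest cell held 75.8%, 61.9% and 98.5%.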

How the results depend on the processing

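No paired analysis was possible because each label has 1 library and no replicate numbers, and no library could be left out. Of 13 alternatives, 2 were added after the data were seen (6 or more CD3 UMIs, and no cells with macrophage or melanocytic UMIs). Over the gate share, the receptor classes, the gene counts and the list medians, 75 of 85 values stayed within the counting interval or within 1.5 times the count. A minimum of 10 CPM gave 267 higher and 341 lower genes, 6 or more CD3 UMIs gave 302 higher, and thinning before the rule gave a Ly49 median of 0.66. Keeping only cells with a Y-linked UMI and no Xist or Tsix left 38 and 688 cells, where the share differed by 4.90 points, 1741 genes were higher and 566 lower, the cytotoxic median was 0.74, and the receptor class differences were -13.3 points (no Trdc) and 18.1 points (Trdc). With 38 cells, depth limits that comparison. Such cells were 4.30% and 67.2% of members, and 83.9% of members labelled WT held Xist or Tsix without Y-linked messages. The filter therefore does not give a comparison matched for sex, and the source of the 38 cells was not tested. With all deposited barcodes the share differed by 0.864 points (0.282 to 1.44), an interval that no longer spans 0.

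Of 56 named genes past 1.5-fold, between 47 and 56 kept their direction under each alternative. The log2 ratios that turned were those of Ccl1 (-0.51) without the highest Scrublet scores, and of Cd14 (1.27), Cxcl1 (2.81), Ccl2 (1.93), Pf4 (0.98), Gzmc (0.024) and Cd63 (-0.19) after thinning before the rule. In cells with Y-linked UMIs they were those of Apoe (3.81), Cd14 (1.95), Ccl2 (0.85), Gzmd (0.67), Pf4 (0.18), Tnf (0.61), Itga1 (0.34) and Gzmc (2.60). With 6 or more CD3 UMIs they were those of Gzma (-0.16), Apoe (0.12), H2-Ab1 (-1.08) and Cd74 (-0.31), and without cells holding macrophage or melanocytic UMIs those of H2-Ab1 (-0.43) and Ccl2 (0.39). The cause was not tested.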
